A study of Mus musculus with 12 samples.

Results

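The effect of a neurokinin-2 receptor antagonist on enteric glia was examined in colon without induced inflammation. The comparison uses 6 of the 12 libraries of the study, 3 labelled Saline_GR159897 and 3 labelled Saline_Vehicle, and they were taken by their treatment labels alone. In all 12 libraries, RNA bound to tagged ribosomes was recovered from distal colon myenteric plexus, and the mice were of strain C57BL/6. Every group carried Sox10::CreERT2+/- with Rpl22tm1.1Psam/J, so that tamoxifen, fed at 400 mg per kg of chow for 2 weeks and followed by 1 week of plain chow, switched on a tagged ribosomal protein in cells that express Sox10. Mice of the Saline_GR159897 group were injected intraperitoneally with GR159897 at 0.5 mg/kg in 0.1% DMSO each day over 3 days, and mice of the Saline_Vehicle group with 0.1% DMSO alone. A saline enema of 0.1 ml was given 24 hours after the first injection, and tissue was taken 48 hours after the enema. The 2 other groups, DNBS_Vehicle and DNBS_GR159897, had the same injections but an enema of 5 mg of the hapten DNBS in 50% ethanol, and here they serve the estimate of spread and a check of named genes. Each saline group held 2 males (replicates 1 and 2) and 1 female (replicate 3), DNBS_Vehicle 2 males and 1 female, and DNBS_GR159897 1 male and 2 females. Ages, litters and the time of day of collection are not given in the labels.

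Tachykinins are small neuropeptides released by enteric neurons. Substance P and neurokinin A come from the Tac1 gene and neurokinin B from Tac2, and they act on 3 receptors that couple to Gq and raise intracellular calcium: NK1 (gene Tacr1), NK2 (Tacr2) and NK3 (Tacr3). NK2 receptors are best known in the gut for driving contraction of smooth muscle and are also found on enteric neurons. GR159897 is a selective non-peptide blocker of this receptor. Enteric glia surround the neurons of the myenteric plexus, are marked by Sox10, S100b and Gfap, and exchange signals with neurons through purines and other transmitters.

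The summed FPKM of the 6 saline libraries (fragments scaled to transcript length and to the size of the library, so that levels of different genes can be set side by side, and so that the sum does not show depth) ran from 266932 to 312962, and 10343 to 11087 genes per library reached 1 FPKM. The share of the signal on annotated loci was 88.8%, 83.5% and 92.6% in Saline_Vehicle and 95.1%, 75.4% and 78.1% in Saline_GR159897. Outside the comparison, DNBS_GR159897 replicate 1 stood apart with a share of 22.6% and high levels of epithelial genes, and it enters the estimate of spread, so values without it are given where they differ in call. The labelled cell type was checked on Sox10, which lay at 15.4 to 248 FPKM in the 6 libraries, and by S100b, at 157 to 288 FPKM, while Foxd3, another gene of the glial lineage, was listed at 0 in all 6. Smooth muscle transcripts were abundant too (Acta2 at 326 to 812 FPKM), so the libraries also hold RNA of cells that do not express Sox10. In such material fewer cells of a type and less RNA per cell cannot be told apart.

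No gene passed the threshold between antagonist and vehicle in saline-treated mice. Of 12777 genes tested with limma on log2(FPKM + 1), 0 had a Benjamini-Hochberg adjusted p under 0.05 (0%). The smallest adjusted p was 0.0635, for Tmem167b. At an unadjusted p under 0.05 there were 216 genes (1.69%), of which 83 had higher and 133 lower values with the antagonist. In 388 genes (3.04%) all 3 Saline_GR159897 values lay above all 3 Saline_Vehicle values, and in 534 (4.18%) all 3 lay below. When DNBS_GR159897 replicate 1 was left out of the fit, 1 gene passed, Tmem167b, and 290 had an unadjusted p under 0.05. The 6 saline libraries on their own gave 0 genes past the threshold and 417 at an unadjusted p under 0.05. The unadjusted count was 361 without Saline_GR159897 replicate 1, and up to 3 genes passed the threshold when 1 library was left out (without Saline_Vehicle replicate 2).

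The mean log2 values of most genes were close in both groups, but the data do not bound the changes tightly. The median log2 difference over all genes was -0.03, and 12217 genes (95.6%) differed by less than 1 on the log2 scale. The standard error of a difference had a median of 0.49, with 0.33 and 0.96 as its 5th and 95th percentiles. The 95% interval of the difference lay within -1 and 1 for 2123 genes (16.6%) and within -2 and 2 for 10843 (84.9%). With the saline libraries alone, which share no spread with the inflamed colon, 4670 intervals (36.6%) lay within -1 and 1. A p above the threshold therefore does not show that a gene was unaffected. Libraries of the same group were not closer to each other than to the other group: across genes, Pearson's r of log2 values was 0.891 to 0.897 within Saline_Vehicle, 0.832 to 0.873 within Saline_GR159897 and 0.859 to 0.914 between the groups, genes not being independent replicates. The median over genes of the standard deviation was 0.35 in Saline_Vehicle and 0.45 in Saline_GR159897.

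**Figure D1:**
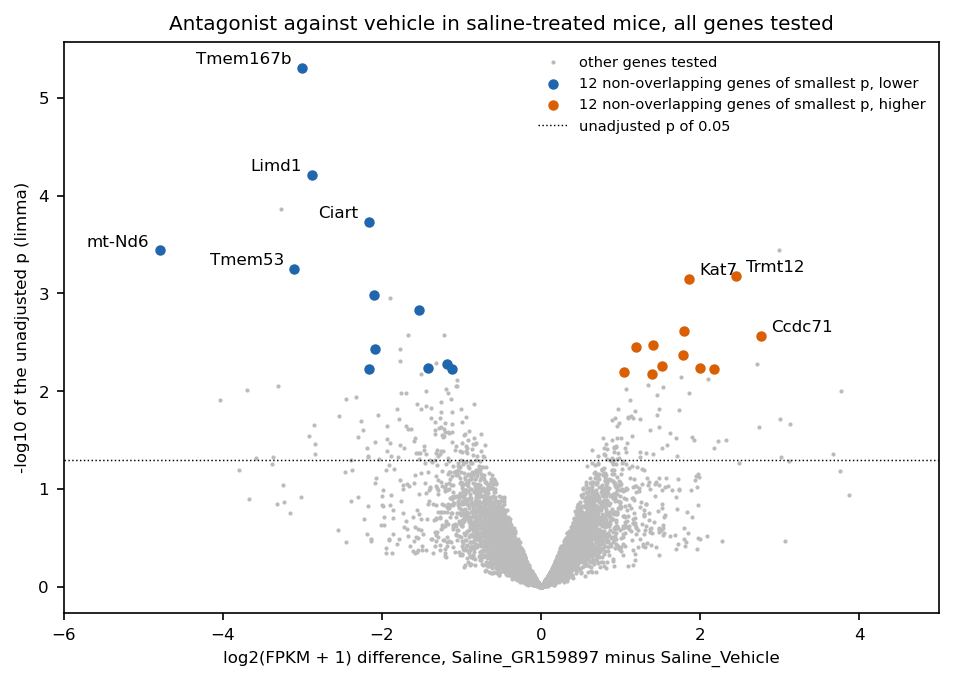
Log2(FPKM + 1) difference of Saline_GR159897 minus Saline_Vehicle (x axis) against -log10 of the unadjusted limma p (y axis) for the 12777 genes tested, 3 libraries per group. Coloured points are the 12 genes per direction that are named in the text; Tmem167b lies highest, with an adjusted p of 0.0635, and no gene passed 0.05 after adjustment.

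The gene nearest to the threshold was Tmem167b, which encodes the small membrane protein kish-B. It lay at 9.36, 9.87 and 12.53 FPKM in the Saline_Vehicle libraries and at 0.68, 0.13 and 0.54 FPKM in the Saline_GR159897 libraries. All 3 libraries with the antagonist were near the floor of the measurement and the groups were far apart. The log2 difference was -3.01 ± 0.40 (SE, n = 3 libraries per group; adjusted p = 0.0635). Over 28 alternative settings it ran from -4.45 to -2.84, with an adjusted p of 0.00114 to 0.654, and it passed the threshold in 9 of them. In the inflamed colon the 3 vehicle libraries had 11.61, 11.78 and 8.53 FPKM of this gene and the 3 antagonist libraries 4.23, 12.33 and 10.43, so Saline_GR159897 was the only group of the 4 without a library above 1 FPKM. GENCODE M21 places Tmem167b on chromosome 3 from 108556425 to 108562466 on the minus strand of GRCm38; its exons overlap those of Gm43435 on the opposite strand, and the FPKM values do not tell strands apart.

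Limd1, a LIM-domain scaffold protein of the Ajuba family, had the next smallest p. Its values were 11.28, 18.73 and 9.67 FPKM with vehicle and 1.18, 0.38 and 1.15 FPKM with the antagonist. The groups did not overlap, and the log2 difference of -2.88 ± 0.49 had an adjusted p of 0.393. With DNBS the gene was at 10.19, 10.55 and 2.96 FPKM in the vehicle libraries and at 5.01, 9.3 and 12.83 FPKM in the antagonist libraries, which overlapped. It lies on chromosome 9 from 123478706 to 123521552 (GRCm38, plus strand), and no exon of another gene overlaps its exons.

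The other genes with lower values under the antagonist differed in where the inflamed colon lay. mt-Nd6, a subunit of respiratory complex I encoded by the mitochondrial genome, was at 160, 2.36 and 42.7 FPKM with vehicle and was listed at 0, 0.1 and 0.01 FPKM with the antagonist and at 0 to 0.17 FPKM in the 6 DNBS libraries. Only the 3 Saline_Vehicle libraries reached 1 FPKM, so this gene passed the filter through that group alone. Mitochondrial loci are patchy in the deposited table: of 15 mitochondrially encoded genes on the list 2 have a locus that could be used, and the other, the 12S ribosomal RNA gene mt-Rnr1 that every cell uses, is listed at 0 in 11 libraries and at 193.29 FPKM in DNBS_Vehicle replicate 2. The zeros of mt-Nd6 are therefore given only as listed, and the part of locus assembly in them was not tested. Its exon overlaps that of mt-Nd5 on the opposite strand, its difference was -4.79 ± 0.98 (adjusted p = 0.773), and without Saline_Vehicle replicate 2, its lowest vehicle library, the adjusted p was 0.000192 against a range of up to 1 over the alternatives. Tmem53, a protein of the nuclear membrane, was at 21.02, 13.57 and 19.95 FPKM with vehicle and at 2.18, 1.19 and 0.53 FPKM with the antagonist (log2 difference -3.10 ± 0.68, adjusted p = 1). With DNBS the vehicle libraries had low Tmem53 values, 1.69, 1.21 and 1.79 FPKM, and the antagonist libraries ran from 0.38 and 3.2 to 15.72 FPKM, the last within the range of Saline_Vehicle. Its exons overlap those of Armh1 on the opposite strand.

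The cystatin gene Cst12, Sgca (alpha-sarcoglycan) and the secreted factor gene Cytl1 had low values with the antagonist and in most DNBS libraries. Cst12 was at 3.59, 9.17 and 2.82 FPKM with vehicle against 0.5, 0.52 and 0 with the antagonist. Sgca was at 1.29, 4.2 and 1.68 FPKM against 0, 0.3 and 0, and Cytl1 at 5.33, 4.9 and 1.55 FPKM against 0.25, 0 and 0. Most DNBS libraries were also below 1 FPKM for these genes. In Grpel2 and Zfp420, as in Tmem167b and Limd1, both DNBS groups were nearer to Saline_Vehicle in mean log2 value. Grpel2, a nucleotide exchange factor of the mitochondrial Hsp70, was at 4.93, 7.39 and 3.19 FPKM with vehicle and at 1.28, 0.7 and 1.83 FPKM with the antagonist, and the zinc finger gene Zfp420 at 1.81, 1.48 and 0.51 FPKM against 0.02, 0.02 and 0. Tspyl3, the pseudogene Tes3-ps and the clock gene Ciart, described with the other clock genes, completed the 12 genes of smallest p with lower values. Their log2 differences ran from -4.79 to -1.11, and none of the 12 passed the threshold.

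The 12 genes of smallest p with higher values in Saline_GR159897 had log2 differences of 1.04 to 2.76, and each had an adjusted p of 1. Trmt12, a tRNA-modifying enzyme, was at 1.59, 0 and 0 FPKM with vehicle and at 7.61, 6.89 and 5.18 FPKM with the antagonist (log2 difference 2.45 ± 0.55). Kat7, the histone acetyltransferase HBO1, was at 4.01, 0.87 and 1.47 FPKM against 9.87, 7.2 and 11.4 FPKM (1.86 ± 0.42). In both genes the lowest antagonist library lay well above the highest vehicle library. Ccdc71, a coiled-coil protein gene, was less even, at 9.08, 0.04 and 0.13 FPKM with vehicle and 18.24, 12.43 and 13.37 FPKM with the antagonist (2.76 ± 0.75). Its exons overlap those of Klhdc8b on the opposite strand.

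Several of the others have known roles in secretion and signalling. Colgalt1, which adds galactose to collagen, was at 1.84, 4.2 and 9.04 FPKM with vehicle and at 24.86, 14 and 15.05 FPKM with the antagonist. Scamp5, a membrane protein of secretory vesicles, was at 0.77, 0.7 and 5.5 FPKM against 14.52, 6.81 and 9.3 FPKM. Traf6, the ubiquitin ligase that relays signals of the interleukin-1 and Toll-like receptors, was at 0.59, 0.13 and 0.14 FPKM against 1.21, 2.98 and 1.75 FPKM. Bmp6, a bone morphogenetic protein, was at 0.85, 0.19 and 0.77 FPKM with vehicle and at 2.69, 2.25 and 1.82 FPKM with the antagonist, and all 6 DNBS libraries (0 to 0.67 FPKM) stayed below these 3, as they also did for Mtss1l and Ccdc71 among the 12. With its 3 antagonist libraries the only ones at 1 FPKM or more, Bmp6 passed the filter through that group alone. Mesdc1 was listed at 0 in all 3 vehicle libraries and at 2.76, 2.97 and 5.12 FPKM with the antagonist; its fitted difference depends on the pseudocount and no fold is given. Tbc1d9b, Mtss1l, Zbtb14 and Map10 made up the 12. Exons of Colgalt1 overlap those of Unc13a, and exons of Bmp6 those of Txndc5, both on the opposite strand. Zbtb14 also has exons that overlap a gene on the opposite strand. Of the 24 genes of smallest p in both directions, 23 were matched to a gene, and 7 of these have such an overlap.

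**Figure D2:**
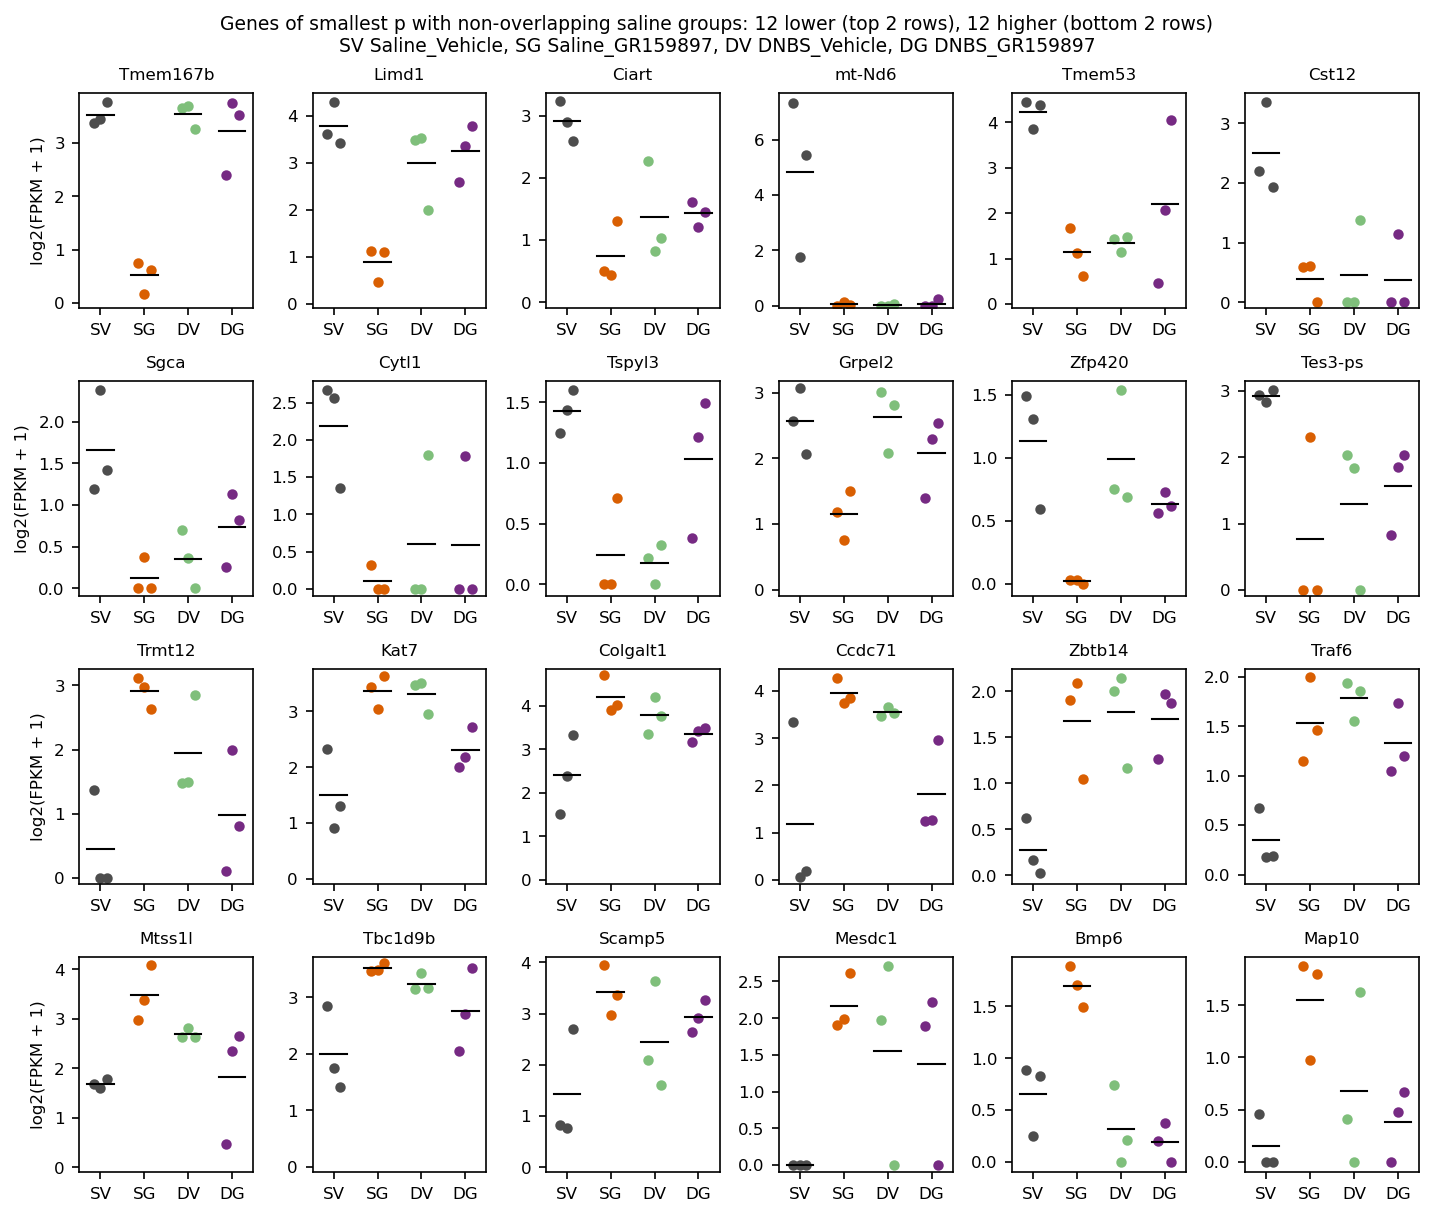
Log2(FPKM + 1) of the 12 genes per direction of smallest p whose saline groups do not overlap; points are libraries (3 per group), lines are group means, and SV, SG, DV and DG stand for Saline_Vehicle, Saline_GR159897, DNBS_Vehicle and DNBS_GR159897. The saline groups are apart in all 24 genes because that chose them. The DNBS groups entered the choice only through the estimate of spread and the filter, and they mostly overlap.

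The means of the same antagonist contrast in the inflamed colon use none of the 6 saline libraries. The DNBS libraries did enter the choice of the 24 genes, through the estimate of spread and the filter, so these means are not a fully independent check. Of the 12 genes with higher values under saline, 1 (Scamp5) also had a higher mean with the antagonist under DNBS and 11 had a lower one. The background for that count is tilted, since 62.7% of all genes had a lower mean in DNBS_GR159897 than in DNBS_Vehicle. Without DNBS_GR159897 replicate 1 the background was 55.2%, and 2 of the 12 genes then had a higher mean. Of the 12 genes with lower values under saline, 5 also had a lower mean under DNBS, and 3 without that replicate. None of the 24 had non-overlapping DNBS groups in the direction seen under saline, and 3 (Kat7, Ccdc71 and Tspyl3) had them in the opposite direction. The share of all genes with non-overlapping DNBS groups is not given here, so these counts are a description only. The difference between the antagonist effects under DNBS and under saline did not pass the threshold for any of the 24 (lowest adjusted p 0.765), or for any of the 12777 genes, of which 457 had an unadjusted p under 0.05. For 18 of the 24 the mean of DNBS_Vehicle was nearer to Saline_GR159897 than to Saline_Vehicle (10 of the 12 higher and 8 of the 12 lower), and for 12 of the 24 that of DNBS_GR159897 was (5 of the higher and 7 of the lower); both saline groups chose these genes, so this is a description. Across all genes the log2 differences of the antagonist with saline and with DNBS had a Pearson's r of 0.02.

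None of the measured genes of the tachykinin system passed the threshold. Tac1, the precursor of substance P and neurokinin A, was at 18.43, 29.56 and 23.72 FPKM with vehicle and at 10.98, 23.02 and 20.97 FPKM with the antagonist. The groups overlapped, with a log2 difference of -0.41 (95% interval -1.96 to 1.15, and -1.24 to 0.43 with the saline libraries alone). Tac2, the precursor of neurokinin B, stayed below 1 FPKM in all 6 libraries. Tacr2, which encodes the receptor that GR159897 blocks, was at 0.96, 2.5 and 0.54 FPKM with vehicle and at 0.3, 1.23 and 2.39 FPKM with the antagonist. These values overlapped throughout, and the difference of -0.03 had an interval of -1.39 to 1.32. Tacr3 had the highest level of the 3 receptors in the saline libraries, 4.93, 6.24 and 6.58 FPKM with vehicle and 9.69, 4.33 and 5.01 FPKM with the antagonist, a difference of 0.02 (-0.94 to 0.98). Tacr1 was at 0.6, 0.74 and 0.34 FPKM against 0.12, 1.75 and 1.56 FPKM (0.36, interval -0.55 to 1.27). Of the peptidases that degrade tachykinins, Ece1 was the 1 gene past the filter, at 14.37 to 18.28 FPKM in the 6 libraries, while Mme, the gene of neprilysin, was at 0 to 0.09 FPKM.

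The genes downstream of the receptor had medians close to that of all genes. Of 34 tested genes of Gq and calcium signalling 16 had a higher and 18 a lower mean with the antagonist, beside 46.6% of all genes with a higher mean, and their median was -0.05. Atp2a2, the calcium pump of the endoplasmic reticulum, had the smallest p among them. It was at 29.57, 27.25 and 26.74 FPKM with vehicle and at 13.12, 9.14 and 17.32 FPKM with the antagonist; the groups did not overlap, and the log2 difference was -1.06 ± 0.54 (adjusted p = 1). Rcan1, a calcineurin inhibitor, ran from 9.52 to 24.11 FPKM with vehicle and from 0.69 to 32.38 FPKM with the antagonist. The 13 tested genes of receptor desensitisation had 4 higher and 9 lower means and a median of -0.11; its member Arrb1 (beta-arrestin 1) was at 7.61, 9.08 and 4.77 FPKM against 1.09, 0.12 and 9.2 FPKM. The 20 genes of cyclic AMP signalling and the 22 of the MAP kinase cascade had medians of -0.03 and -0.02.

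No glial identity gene passed the threshold. Kcna1 and Cnp had an unadjusted p under 0.05, 2 of 24 tested genes beside 1.69% of all genes. Higher values without overlap were found for 2 of the 24 (Kcna1 and Gas7), beside 3.04% of all genes. Lower ones were found for 1 (Cnp), beside 4.18%. Gas7 was at 15.36, 13.52 and 11.83 FPKM with vehicle and at 18.79, 15.46 and 33.17 FPKM with the antagonist. Of 24 tested genes 14 had a higher and 10 a lower mean, with a median of 0.11; leaving out 1 saline library at a time, it ran from -0.32 (without Saline_GR159897 replicate 1, 11 higher and 13 lower) to 0.26 (without Saline_GR159897 replicate 2, 19 higher and 5 lower). S100b was at 181.94, 201.82 and 212.99 FPKM with vehicle and at 156.64, 265.16 and 288.18 FPKM with the antagonist, a log2 difference of 0.20. Its interval was -2.31 to 2.72 in the fit of all 12 libraries and -0.52 to 0.92 with the saline libraries alone; DNBS_GR159897 replicate 1, at 1.17 FPKM, is among the libraries that only the first interval uses. Erbb3, the neuregulin receptor of the glial lineage, was at 22.03 to 31.54 FPKM in all 6 libraries (0.12, interval -0.49 to 0.73 with the saline libraries alone).

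Sox10, the transcription factor whose promoter drives the Cre, was at 178.71, 15.43 and 247.53 FPKM with vehicle and at 238.64, 141 and 228.44 FPKM with the antagonist. Saline_Vehicle replicate 2 was the 1 library far below the others, and the difference was 1.14 (interval -1.30 to 3.57). Kcna1, a voltage-gated potassium channel, was at 0.51, 44.3 and 4.09 FPKM with vehicle and at 85.1, 51.19 and 51.11 FPKM with the antagonist. The groups did not overlap, but the highest vehicle library was close to the lowest antagonist library, and the difference of 3.13 ± 1.19 had an unadjusted p of 0.0215 and an adjusted p of 1. Cnp, a myelin-associated phosphodiesterase, was at 113.02, 92.3 and 121.02 FPKM with vehicle and at 73.93, 12.1 and 18.4 FPKM with the antagonist (-2.03 ± 0.93, adjusted p = 1). Gfap, the intermediate filament of reactive glia, has blank values in the 3 Saline_Vehicle libraries and could not be compared; with the antagonist it was at 322.84, 89.81 and 151.88 FPKM.

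**Figure D3:**
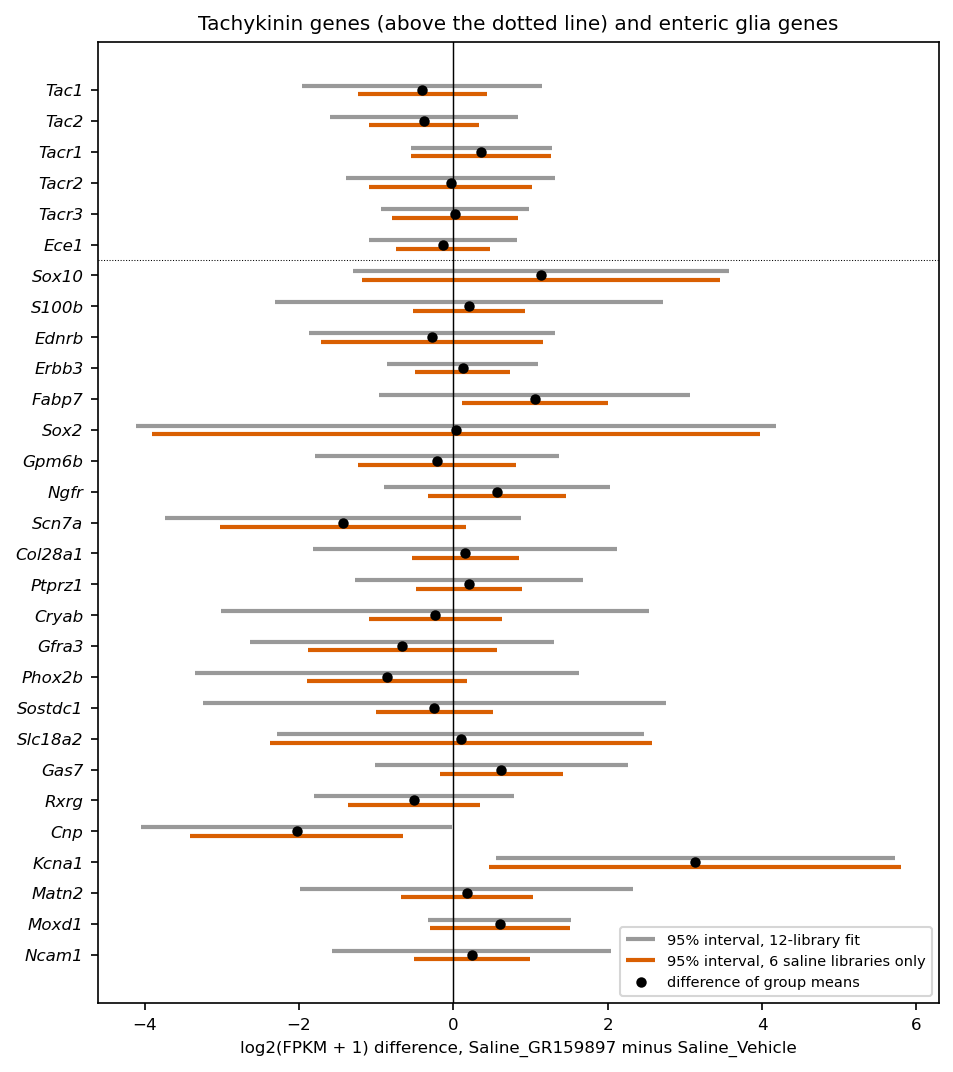
Log2(FPKM + 1) differences of Saline_GR159897 minus Saline_Vehicle (black points) with 95% intervals from the fit of all 12 libraries (grey) and of the 6 saline libraries (orange), for tested genes of the tachykinin system (above the dotted line) and the tested genes of enteric glia that are reported here. In the fit of all 12 libraries the intervals of Kcna1 and Cnp leave out 0 before adjustment, and the others include it; with the saline libraries alone that of Fabp7 also leaves out 0.

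Genes that change when glia react to injury showed no common shift. Of 18 tested reactive glia genes 11 had a higher and 7 a lower mean (median 0.12). Vim was at 301 to 353 FPKM in all 6 libraries, and Nes (nestin) at 5.32, 4.76 and 4.99 FPKM with vehicle and 7.18, 9.55 and 9.46 FPKM with the antagonist, groups that did not overlap (0.68, adjusted p = 1). Emp1, an epithelial membrane protein, lay the other way, at 42.54, 32.96 and 30.98 FPKM against 8.95, 0.6 and 17.3 FPKM (-2.45 ± 0.84, unadjusted p 0.0119, adjusted p = 1). The 12 purinergic and connexin genes, through which glia exchange calcium signals, had 10 higher and 2 lower means and a median of 0.16. The 12 neurotrophic genes had 9 higher and 3 lower means; Gfra2, a co-receptor for neurturin, was at 4.46, 8.75 and 38.65 FPKM with vehicle and at 56.71, 36.54 and 35.26 FPKM with the antagonist. The 10 myelin genes had 5 of each and a median of 0.08.

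Clock genes included one of the named genes, Ciart, and several others with low or high values in the same libraries. Ciart encodes a repressor of the CLOCK and BMAL1 activator. It was at 8.4, 6.44 and 5.06 FPKM with vehicle and at 0.41, 0.35 and 1.47 FPKM with the antagonist; the groups did not overlap, and the log2 difference was -2.16 ± 0.42 (adjusted p = 0.595, and 0.195 to 1 over the alternatives). Dbp, a transcription factor that CLOCK and BMAL1 activate, was at 30.83, 19.13 and 28.88 FPKM with vehicle and at 4, 1.48 and 20.8 FPKM with the antagonist (-2.05 ± 0.75, unadjusted p 0.0176). Arntl, which encodes BMAL1, was at 0.86, 0.32 and 1.2 FPKM with vehicle and at 6.19, 4.69 and 1.17 FPKM with the antagonist (1.35 ± 0.44, unadjusted p 0.00872). In Dbp and Arntl the third antagonist library, the female, lay within or beside the vehicle range, and so the groups overlapped.

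Nr1d1, the REV-ERB alpha repressor of Arntl, had the same layout, at 37.7, 31.41 and 30.57 FPKM with vehicle and 16.55, 7.87 and 31.73 FPKM with the antagonist. Per2 was at 2.14, 2.17 and 1.63 FPKM against 0.87, 0.98 and 1.97 FPKM. Per1, which also answers to acute stimuli, was at 4.51, 3.26 and 1.22 FPKM against 4.56, 7.81 and 3.43 FPKM. Clock itself was at 2.41 to 2.89 FPKM with vehicle and at 1.66, 6 and 2.83 FPKM with the antagonist. Of the 22 tested clock genes 8 had a higher and 14 a lower mean, with a median of -0.18, and none passed the threshold. The circadian time of each collection is not in the labels, and its part in these values was not tested.

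**Figure D4:**
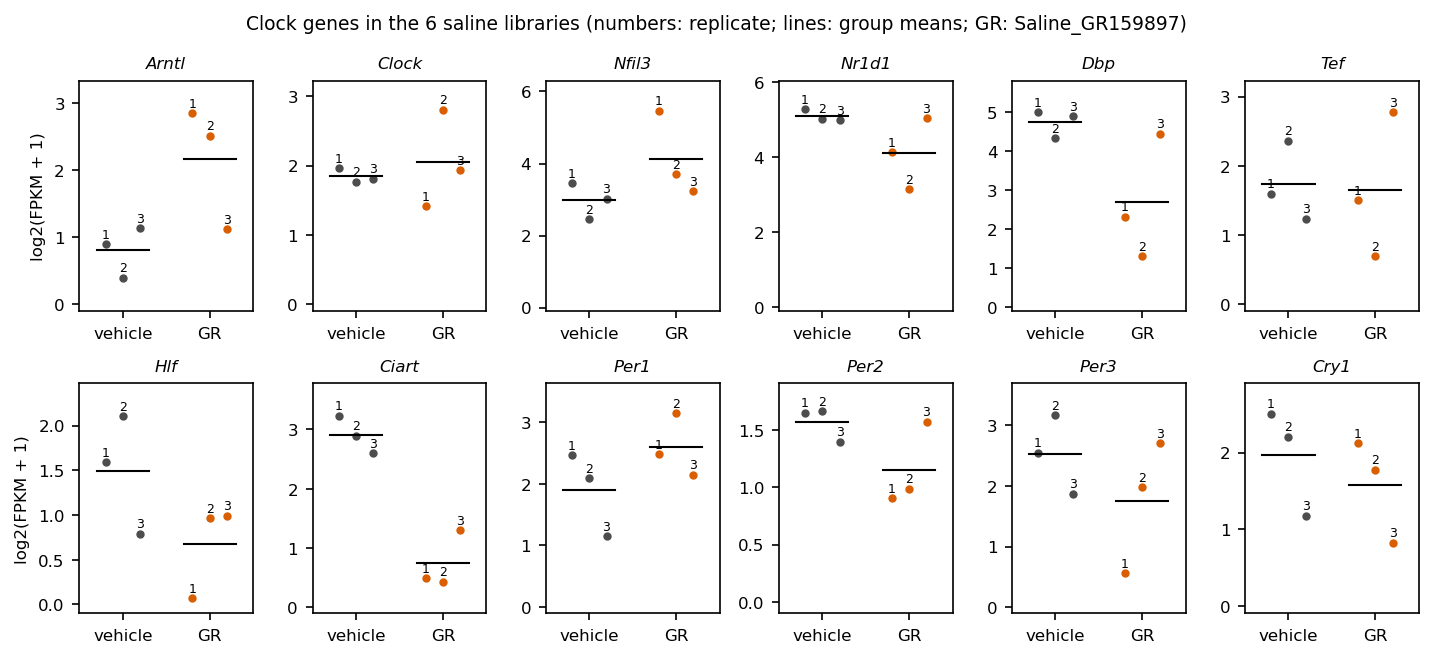
Log2(FPKM + 1) of 12 clock genes in the 6 saline libraries; numbers mark the replicate, lines the group mean, and GR stands for Saline_GR159897. Ciart is low in all 3 antagonist libraries, while in Dbp, Nr1d1 and Arntl replicates 1 and 2 with the antagonist lie apart from vehicle and replicate 3 does not.

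The promoter of Ciart is shown because CLOCK and BMAL1 bind the E-box CACGTG, a palindrome that reads the same on both strands, and because Ciart was the clock gene with non-overlapping groups. The sequence is from RefSeq (GRCm38.p6, chr3:95882259-95882478, minus strand) and covers bases 250 to 31 before the annotated start, with the 3 E-boxes in capitals. 
Ciart: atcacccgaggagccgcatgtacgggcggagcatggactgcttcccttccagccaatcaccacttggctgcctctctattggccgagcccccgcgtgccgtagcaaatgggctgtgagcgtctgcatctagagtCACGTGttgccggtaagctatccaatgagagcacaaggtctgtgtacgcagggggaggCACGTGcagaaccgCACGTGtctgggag
The motif occurs in the 250 bases before the start in 6.02% of 32851 RefSeq promoter windows, and 3 or more times in 20 windows. Among 19 of the 24 clock genes on the list that have a window, 5 hold it. The sites of 2 of the others are shown for comparison with their 12 flanking bases, that of Cry1 at chr10:85185097-85185126 (minus strand) and that of Per1 at chr11:69098771-69098800 (plus strand).
Cry1: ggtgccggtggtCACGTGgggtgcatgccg
Per1: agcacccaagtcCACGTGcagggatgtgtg
Cry1 was at 4.7, 3.62 and 1.26 FPKM with vehicle and at 3.35, 2.43 and 0.77 FPKM with the antagonist, and these groups overlapped, as did those of Per1. No window of Arntl, Dbp or Nr1d1 holds these 6 letters. A match is a description of the sequence, not of binding.

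No gene of the stress and metabolism lists passed the threshold. Non-overlapping lower values were found for 2 of 23 hypoxia and glycolysis genes and 2 of 9 prostaglandin genes, beside 4.18% of all genes, and non-overlapping higher values for 2 of 23 immediate early genes, beside 3.04%. Bnip3, a mitophagy receptor induced by low oxygen, was at 67.63, 90.29 and 54.2 FPKM with vehicle and at 19.56, 9.14 and 41.48 FPKM with the antagonist (-1.76 ± 0.59, unadjusted p 0.0104). Epas1, which encodes the hypoxia-inducible factor HIF-2 alpha, was at 7.08, 7.07 and 5.69 FPKM against 1.1, 1.3 and 5.68 FPKM (-1.25 ± 0.45, unadjusted p 0.0161), so that its groups were separated by 0.01 FPKM. Both had an adjusted p of 1, and the 23 tested genes of hypoxia and glycolysis had 11 higher and 12 lower means and a median of -0.01 (-0.15, with 5 higher and 18 lower, without Saline_GR159897 replicate 1, and 0.10, with 15 higher and 8 lower, without Saline_Vehicle replicate 3). Hpgd, which inactivates prostaglandins, was at 5.23, 11.01 and 4.84 FPKM with vehicle and at 1.22, 3.36 and 1.22 FPKM with the antagonist (-1.45 ± 0.65), and Ptger2, a receptor for prostaglandin E2, at 3.61, 1.34 and 1.84 FPKM against 1.05, 0.43 and 1.02 FPKM. Of the 9 tested prostaglandin genes 8 had a lower mean, with a median of -0.26. Among 23 immediate early genes 14 had a higher mean (median 0.03), and 9 without Saline_GR159897 replicate 1 (median -0.19). Btg2, an antiproliferative gene induced by stimulation, was at 8.15, 12.14 and 6.5 FPKM with vehicle and at 16.37, 18.17 and 17 FPKM with the antagonist (0.91 ± 0.39, adjusted p = 1).

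No inflammatory gene on the lists passed the threshold. Of 23 tested cytokine and chemokine genes 11 had a higher and 12 a lower mean, with a median of 0.00. Ccl11, the eosinophil attractant eotaxin, was at 4.49, 5.03 and 3.31 FPKM with vehicle and at 0.78, 2.15 and 0.07 FPKM with the antagonist (-1.52 ± 0.68), and Ccl5, an attractant of T cells, at 1.88, 1 and 1.64 FPKM against 0.06, 0.54 and 0 FPKM (-1.07 ± 0.46). In both the groups did not overlap and the adjusted p was 1. Of the 13 tested NF-kB targets 6 had a higher and 7 a lower mean. Over the 25 pathway lists with at least 5 tested genes, medians ran from -0.26 to 0.27, and no member of any list passed the threshold.

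Several lists differed more between libraries of the antagonist group than between the groups. Saline_GR159897 replicate 1 was the highest of the 6 libraries for 17 of 20 cholesterol synthesis genes, against 21.0% of all genes. Fdft1 (squalene synthase) was at 135.92, 16.68 and 24.35 FPKM with the antagonist and at 41.99, 29.07 and 35.34 FPKM with vehicle, and Idi1 at 62.29, 23.17 and 12.01 FPKM against 18.37, 12.94 and 12.51 FPKM. The list had 17 higher and 3 lower means and a median of 0.27, and without that library 9 and 11 and a median of -0.11. Saline_GR159897 replicate 2 was the lowest library for all 12 tested genes of antigen presentation, against 20.05% of all genes. Replicate 3 was the highest for 10 of the 12, against 15.1% of all genes. H2-Ab1, a class II histocompatibility gene, was at 36.62, 9.15 and 367.66 FPKM with the antagonist and at 20.26, 46.6 and 61.13 FPKM with vehicle, and B2m, the light chain of class I molecules, at 1285.66, 357.39 and 1765.07 FPKM against 1863.55, 1330.02 and 1299.2 FPKM. The median of the list was 0.03, and it was -0.76 without replicate 3 and 0.71 without replicate 2. Replicate 3 was also the highest library for 14 of 19 interferon-stimulated genes, against 15.1% of all genes; their median was 0.22, and -0.16 without it.

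**Figure D5:**
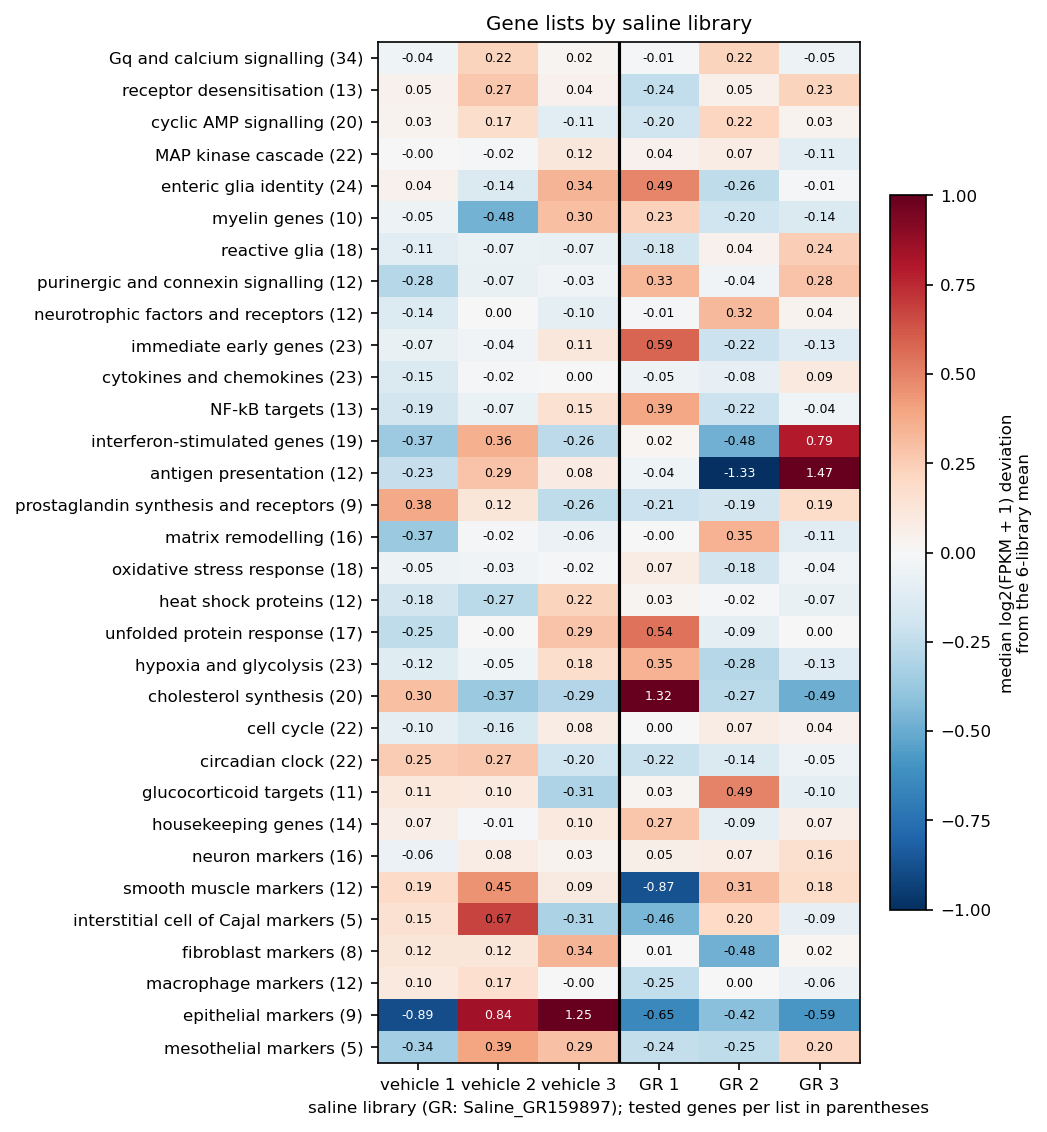
Median deviation in log2(FPKM + 1) of the tested genes of each list from their mean over the 6 saline libraries, by library (columns; GR stands for Saline_GR159897); colours saturate at -1 and 1 and the numbers give each value. Cholesterol synthesis stands out in GR replicate 1 (1.32), antigen presentation in GR replicates 2 (-1.33) and 3 (1.47), and epithelial markers in vehicle replicates 2 and 3 (0.84 and 1.25) against -0.89 in vehicle replicate 1.

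Markers of other cell types varied between libraries and in part with the groups. Summed over 15 epithelial markers the level was 5.49, 51.2 and 64.78 FPKM with vehicle and 6.35, 9.94 and 10.85 FPKM with the antagonist. All 9 tested members had a lower mean with the antagonist (median -1.03), but vehicle replicate 1 was as low as the antagonist libraries; Epcam, which defines epithelium, was at 0, 2.01 and 4.29 FPKM with vehicle and at 0.18, 0.58 and 0.34 FPKM with the antagonist. Smooth muscle markers summed to 3709, 4528 and 3411 FPKM with vehicle and to 1779, 3074 and 3312 FPKM with the antagonist. Of these 12 genes 10 had a lower mean (median -0.40). Saline_GR159897 replicate 1 was the lowest library for 10 of the 12, against 22.2% of all genes. Without that library 8 had a higher mean and the median was 0.10. Acta2 was at 811.53, 733.2 and 639.68 FPKM with vehicle and at 481.82, 326.19 and 642.57 FPKM with the antagonist, and its groups overlapped. Actg2 was at 438.91, 450.48 and 437.14 FPKM against 266.07, 136.74 and 377.94 FPKM, and its groups did not overlap. Lower values without overlap were found for 2 of the 12 markers, beside 4.18% of all genes. Acta2 and Actg2 were the 2 of the 12 markers that were lowest in replicate 2. In that replicate the list had a median deviation of 0.31 from the mean of the 6 saline libraries, against -0.87 in replicate 1. Atp2a2, which muscle also expresses, was lowest in replicate 2. The part of muscle RNA in the Atp2a2 values was not tested.

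Fibroblast markers had 1 higher and 7 lower means (median -0.40), with Dcn (decorin) at 29.02, 32.77 and 23.35 FPKM with vehicle and 10.48, 15.58 and 11.82 FPKM with the antagonist, groups that did not overlap (-1.11, adjusted p = 1). Macrophage markers summed to 118.2, 73.89 and 77.01 FPKM with vehicle and to 58.63, 55.04 and 50.44 FPKM with the antagonist. Most of each sum was Lyz2, at 100.61, 60.77 and 57.62 FPKM against 50.21, 35.62 and 34.33 FPKM. Of the 12 tested markers 9 had a lower and 3 a higher mean (median -0.11). Aif1 was among the higher ones, at 1.22, 0.6 and 0.69 FPKM against 0.28, 2.65 and 3.55 FPKM (0.61). The 5 tested markers of interstitial cells of Cajal all had a lower mean (median -0.26). The 16 neuron markers had 10 higher and 6 lower means (median 0.08) and summed to 451 to 582 FPKM in the 6 libraries. Neutrophil markers summed to at most 12.1 FPKM and lymphocyte markers to at most 1.3 FPKM in any saline library. None of these markers passed the threshold, and their part in the values of the genes named above was not tested.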

How the data were processed

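The 12 libraries were made with the SMART-seq v4 and Nextera kits from 1 ng of RNA, per the labels' protocols. The authors deposited FPKM values per assembled locus and library; StringTie 1.3, HISAT2 2.0, FastQC 0.10.1 and cutadapt 1.10 are listed in the submitters' processing notes, without their roles. The authors' genome build was not given in the sources used here. Depth is unknown, so counting error could not be stated. Of 99547 loci the 24432 with an annotated Ensembl transcript were used, 1 per gene symbol (highest mean, 24394 symbols), and those that reached 1 FPKM in 3 or more of the 12 libraries were tested. Gfap, blank in 3 libraries, was left out.

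Values were analysed as log2(FPKM + 1), a scale that understates differences of low genes. One coefficient per group was fitted over all 12 libraries with limma 3.58.1 (R 4.3.3, trended and robust prior, 8 residual degrees of freedom), two-sided, with Benjamini-Hochberg adjustment over all genes and a threshold of 0.05. The procedure was tested on simulated data. Genes named are the 12 per direction of smallest p among non-overlapping genes at a locus with 1 symbol, predicted genes left out, the members of the tachykinin and glia lists (1 glia gene is counted in its list but not reported here), and the 2 of smallest p in each other list with at least 5 tested genes; further members were named after their values were seen. The comparison, the gene lists and the cell type markers were chosen with earlier results of these data known. Labels do not say how replicates were collected, so p-values measure the spread between these libraries. Positions come from GENCODE M21 (GRCm38) through transcript identifiers, with 23496 symbols matched to 1 gene. Alternatives covered the libraries used, a sex term, a replicate block, an annotated-share term, scaling, pseudocount, filter, prior, weights and locus choice. Table handling used numpy 2.4.6, pandas 2.3.3 and Python 3.11.15.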

Additional observations from a re-analysis of the deposited data

Results flagged for a closer look

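In 3 of the 24 genes of smallest p the antagonist libraries lay wholly on one side of vehicle with saline and wholly on the other side with DNBS. This count is a description only, since the share of all genes with non-overlapping DNBS groups is not given here. With DNBS, the vehicle libraries had 10.15, 10.45 and 6.72 FPKM of Kat7 and the antagonist libraries 3.03, 3.52 and 5.58 FPKM, where with saline the antagonist libraries were the higher ones; the effect with DNBS minus that with saline was -2.87 ± 0.59 on the log2 scale. For Ccdc71 these values were 10.06, 11.64 and 10.65 FPKM against 1.36, 1.4 and 6.81 FPKM, and the effects differed by -4.50 ± 1.05. Tspyl3 was at 1.37, 1.7 and 2.03 FPKM with saline and vehicle and at 0, 0 and 0.64 FPKM with saline and the antagonist, but at 0.16, 0 and 0.25 FPKM in DNBS_Vehicle and 0.3, 1.32 and 1.82 FPKM in DNBS_GR159897, a difference of effects of 2.04 ± 0.50. None of the 3 differences passed the threshold in limma (adjusted p 0.765, 0.957 and 0.957), and the genes were chosen on their saline values, which enter these differences.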

How the results depend on the processing

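The count of 0 genes past the threshold and 216 at an unadjusted p under 0.05 was recomputed in 29 alternative fits, and the 24 genes of smallest p had the same direction in all in which they were tested. Leaving out 1 library at a time gave 0 to 3 genes past the threshold (without Saline_Vehicle replicate 2 these were Fibin, Pnrc1 and mt-Nd6) and 175 to 361 at an unadjusted p under 0.05, the highest without Saline_GR159897 replicate 1. A single gene, Tmem167b, passed with the annotated share as a term (131 higher and 137 lower at an unadjusted p under 0.05, against 83 and 133), with scaling to the annotated total or to the median ratio, with quantile normalisation, with a pseudocount of 0.1 or 0.5, and with a filter of 5 FPKM; the cause was not tested. Library weights gave 5 genes (Tmem167b, Limd1, Tmem53, Gm6136 and Gm15453) and 797 at an unadjusted p under 0.05. The unadjusted count was 417 with the 6 saline libraries, 444 of 24393 genes without a filter and 78 of 7000 with the filter of 5 FPKM, which left 195 genes above and 291 below without overlap, fewer genes being tested there. Saline groups share replicate numbers and the sex that goes with them, but deviations of same-numbered libraries correlated at 0.05, 0.20 and -0.09, and the third vehicle library was closest to the first antagonist library, so the numbers were not taken as pairs. A replicate block gave 0 genes past the threshold with the 6 saline libraries and with all 12, and 467 and 239 at an unadjusted p under 0.05. With 3 libraries per group and unknown depth, differences under 1 on the log2 scale were not detectable for most genes. Larger differences could be missed too: the group means of 76 genes differed by 2 or more, and none of these passed the threshold. The values of the inflamed colon without DNBS_GR159897 replicate 1, and the counts of non-overlapping genes under other settings, were chosen after seeing the data.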
